A study of Homo sapiens with 9 samples.

Results

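The 10 genes described here are 5 metallothioneins, MT1E, MT1F, MT1G, MT1X and MT2A, and 5 transporters of copper and platinum drugs, SLC31A1, SLC31A2, ATP7A, ATP7B and ABCC2. They were taken by gene name from the 58735 rows of the gene count table of OVCAR4 cells, an established human ovarian serous adenocarcinoma line, in which MPZL3 was knocked down with shRNA. RNA-seq was carried out on 9 libraries, 3 of the pLKO.1 scramble (scr) control, which is labelled WT, 3 of shMPZL3 #1, here sh #1 (TRCN0000137304), and 3 of shMPZL3 #2, here sh #2 (TRCN0000413087), both labelled MPZL3 knock-down. All cells, controls included, had been transduced with lentiviral shRNA and selected with puromycin for 3 days. The methods name pLKO.1 for the scramble plasmid and the TRC library for the MPZL3 shRNAs. They name no selection of single-cell clones for these cells. The methods name 3 biological replicates for each condition. The question here was how the metal-handling genes differ between knockdown and control, and between the shRNAs.

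Metallothioneins are small cysteine-rich proteins that bind zinc, copper and cadmium through their thiol groups and can also bind platinum drugs. Their genes sit in a cluster on chromosome 16 and are induced by zinc through the transcription factor MTF1, which binds metal response elements in their promoters, and by glucocorticoids and oxidative stress. Copper enters cells through CTR1, the product of SLC31A1, is carried by chaperones such as ATOX1 to the copper-exporting ATPases ATP7A and ATP7B, and leaves through them. These proteins have been studied in ovarian cancer because cisplatin and carboplatin can use some of the same routes, and ABCC2 (MRP2) is a pump that exports glutathione conjugates.

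The libraries held 15040102 to 27835841 counts. MPZL3 had 403, 648 and 427 counts in scr control, 130, 144 and 130 with sh #1, and 281, 375 and 361 with sh #2. The knockdown was deeper with sh #1 (log2 fold change -2.17) than with sh #2 (-0.89), and the difference of 1.28 passed the test. Every contrast between the shRNAs below is therefore also a contrast in depth of knockdown and in shRNA sequence. The epithelial markers PAX8, EPCAM, KRT7, KRT8, KRT18, MUC16, SOX17 and CDH1 each had at least 3381 counts in every library, whereas MSLN had 46 to 100 and WT1 had 3 to 13. Some markers of other cell types also moved. The 6 fibroblast markers summed to 18.5 to 22.6 CPM (counts scaled to library size) in scr control, 42.5 to 62.0 with sh #1 and 33.8 to 37.8 with sh #2, with DCN at 0 in every library. The 5 endothelial markers summed to 8.68 to 10.2, 7.50 to 9.53 and 12.5 to 16.4, and the 5 leukocyte markers to 2.01 to 2.53, 2.10 to 3.05 and 2.81 to 4.69. All libraries came from cultured OVCAR4 cells, so the sums are levels of marker genes and not numbers of other cells. In bulk libraries, more cells with a marker and more of its RNA per cell cannot be told apart. The part of these markers in the results below was not tested.

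The metallothionein members are close copies of each other, which matters for any count assigned to a single gene. The coding sequence of each, 186 bases from start to stop codon in GENCODE release 29 transcripts, is shown with capitals at the bases that differ from MT2A.
MT2A: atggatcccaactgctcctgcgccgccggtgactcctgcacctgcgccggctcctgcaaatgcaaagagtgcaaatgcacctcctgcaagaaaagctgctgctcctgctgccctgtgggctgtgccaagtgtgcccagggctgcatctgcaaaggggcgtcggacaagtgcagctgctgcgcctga
MT1E: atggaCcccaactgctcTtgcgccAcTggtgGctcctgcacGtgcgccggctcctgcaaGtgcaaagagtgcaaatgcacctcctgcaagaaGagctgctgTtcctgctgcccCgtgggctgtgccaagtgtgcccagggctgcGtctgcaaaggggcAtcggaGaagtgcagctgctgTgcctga
MT1F: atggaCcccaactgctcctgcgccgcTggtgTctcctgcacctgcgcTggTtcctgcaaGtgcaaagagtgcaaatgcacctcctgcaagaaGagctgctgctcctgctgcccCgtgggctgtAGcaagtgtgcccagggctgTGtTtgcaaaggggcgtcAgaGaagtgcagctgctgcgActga
MT1X: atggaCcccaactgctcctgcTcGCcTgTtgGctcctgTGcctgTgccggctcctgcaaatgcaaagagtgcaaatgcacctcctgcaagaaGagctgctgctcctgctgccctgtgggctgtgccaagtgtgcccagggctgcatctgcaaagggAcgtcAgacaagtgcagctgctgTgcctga
MT1G: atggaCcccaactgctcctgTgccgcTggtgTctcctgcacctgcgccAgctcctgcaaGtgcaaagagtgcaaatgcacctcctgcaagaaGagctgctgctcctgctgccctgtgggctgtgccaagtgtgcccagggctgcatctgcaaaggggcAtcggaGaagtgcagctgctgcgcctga
MT1E and MT1X each differed from MT2A at 14 bases (92.5% identity), MT1F at 16 (91.4%) and MT1G at 9 (95.2%). Between any 2 of the 5, identity ran from 88.7% to 95.2%.

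The rest of each transcript set the genes further apart. Of all 50-base windows in the transcripts of a gene, 7.1% in MT1E, 1.22% in MT1F, 3.02% in MT2A, 18.3% in MT1X and 16.5% in MT1G also occurred in a transcript of another gene. At 100 bases no window of MT1E, MT1F, MT2A or MT1G did, and the 11.3% of MT1X windows that did were shared only with AC026461.1, which had 0 counts. Reads short enough to fall in the shared windows could still be assigned to the wrong copy or dropped, so single-gene values in the cluster carry that uncertainty.

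On GRCh38, MT2A lies at chr16:56608199-56609497, MT1E at chr16:56625475-56627112, MT1F at chr16:56657694-56660698 and MT1X at chr16:56682424-56684196, all on the plus strand, and MT1G at chr16:56666731-56668065 on the minus strand. SLC31A1 (chr9:113221562-113264492, plus strand) and SLC31A2 (chr9:113150942-113164137, plus strand) are near neighbours on chromosome 9. ATP7A is at chrX:77910656-78050395 (plus strand), ATP7B at chr13:51930436-52012125 (minus strand) and ABCC2 at chr10:99782640-99852594 (plus strand).

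Promoter windows, from 250 bases before to 50 bases after a RefSeq start (GRCh38.p14), were matched by symbol for 6 of the 10 genes, MT2A, MT1X, SLC31A1, ATP7A, ATP7B and ABCC2. The windows of the metallothioneins are shown because the 4 tested members of the family were all called lower with sh #1, while with sh #2 only MT2A of them was called, with capitals at matches to the core of the metal response element, TGCACNC or TGCGCNC on either strand. The MT2A window is chr16:56608334-56608633 and the MT1X window is chr16:56682220-56682519, both read on the plus strand.
MT2A promoter: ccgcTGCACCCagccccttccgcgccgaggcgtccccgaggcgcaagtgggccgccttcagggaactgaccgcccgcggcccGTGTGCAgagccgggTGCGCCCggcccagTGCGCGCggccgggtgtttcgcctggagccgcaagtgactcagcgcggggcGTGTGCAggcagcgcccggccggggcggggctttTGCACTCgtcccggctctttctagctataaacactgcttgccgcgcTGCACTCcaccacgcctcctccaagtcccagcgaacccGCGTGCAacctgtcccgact
MT1X promoter: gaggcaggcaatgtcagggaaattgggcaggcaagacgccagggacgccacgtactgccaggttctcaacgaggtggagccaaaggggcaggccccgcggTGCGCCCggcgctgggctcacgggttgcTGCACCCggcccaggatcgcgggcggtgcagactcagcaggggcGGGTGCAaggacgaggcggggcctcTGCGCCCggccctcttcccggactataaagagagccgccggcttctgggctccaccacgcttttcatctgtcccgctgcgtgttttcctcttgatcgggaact
The MT2A window held 8 matches, 5 on the plus and 3 on the minus strand, and the MT1X window held 4. Of 35116 such windows of all genes, 29.6% held at least 1 match, 0.601% at least 4 and 0.0199%, or 7 windows, at least 8. The transporter windows held few. SLC31A1 and ATP7A had 0 matches, ABCC2 had 1, and the 3 annotated starts of ATP7B, whose first 2 windows overlap and share 1 match, had 1, 2 and 0. A match is a description of the letters and not a site of binding.

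**Figure D1:**
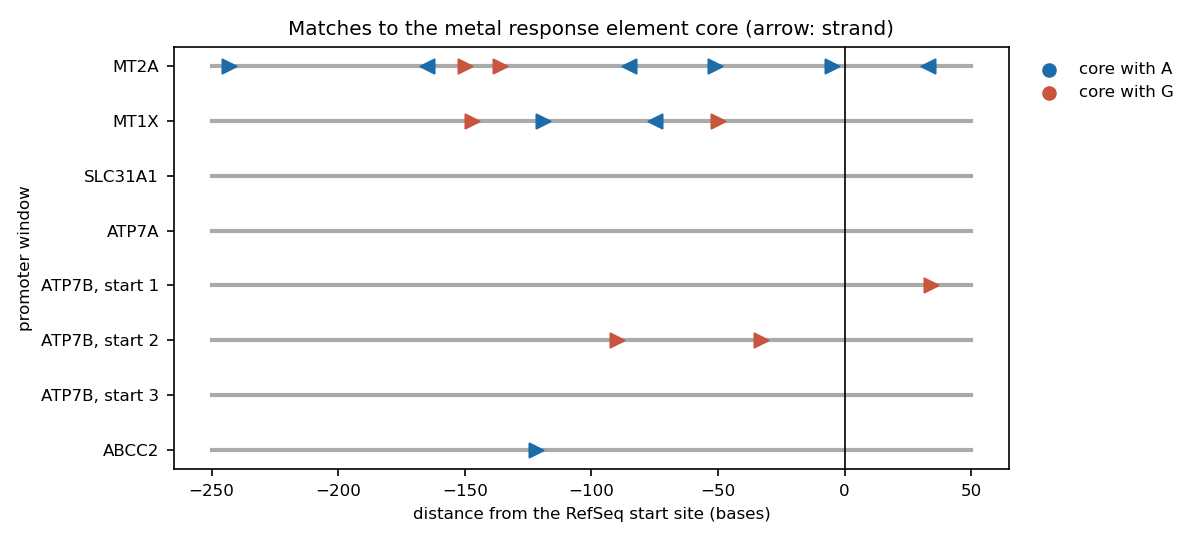
Matches to the metal response element core in each promoter window, placed by distance in bases from the RefSeq start; arrowheads give the strand and colours the 2 forms of the core. MT2A carried 8 matches and MT1X 4 along the window, while SLC31A1 and ATP7A carried 0.

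The knockdown as a whole moved no member past the threshold. With both shRNAs grouped, 6 libraries against 3, edgeR's quasi-likelihood test called 0 of the 8 members that passed the low-count filter (adjusted p under 0.05), against 15.8% of the 16928 genes tested, 9.36% higher and 6.4% lower. At an unadjusted p-value under 0.05 there was 1 member, SLC31A1, and DESeq2 also called 0. SLC31A1 was also the 1 member of 8 whose knockdown libraries did not overlap the controls, on the lower side, as did 11% of all genes tested. The median log2 fold change of the 8 members was -0.14, against 0.02 over all genes. MT1E (-0.67, adjusted p = 0.25) and MT1X (-0.57, adjusted p = 0.258) were called lower when the mean of both shRNAs was taken within the 3-group fit (-0.86, adjusted p = 0.00117, and -0.69, adjusted p = 0.00716), MT1E also with no low-count filter (adjusted p = 0.00437) and MT1X without replicate 2 of sh #2 (adjusted p = 0.0343). The shRNAs are given separately below, with the same 3 control libraries behind both.

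By shRNA, the members differed widely. With sh #1, 6 of the 8 members were called, 2 higher and 4 lower, where 32% of all genes were, 16.8% higher and 15.3% lower. With sh #2, 1 was called higher and 0 lower, where 15.2% of all genes were called, 9.36% higher and 5.8% lower. Between sh #2 and sh #1, 4 were called higher and 1 lower, where 15.1% of all genes were called, 7.56% in each direction. The libraries of sh #1 stood wholly above the controls for 2 members and wholly below for 5, against 23.9% and 22.8% of all genes. For sh #2 those counts were 2 and 2, against 18.7% and 17.6%. Against sh #1, the sh #2 libraries stood wholly above for 4 members and wholly below for 1, against 15.4% and 14.6%. The median log2 fold change of the 8 tested members was -0.69 for sh #1, -0.08 for sh #2 and 0.83 between them, and the median over all genes was 0.01, 0.00343 and 0.01.

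**Figure D2:**
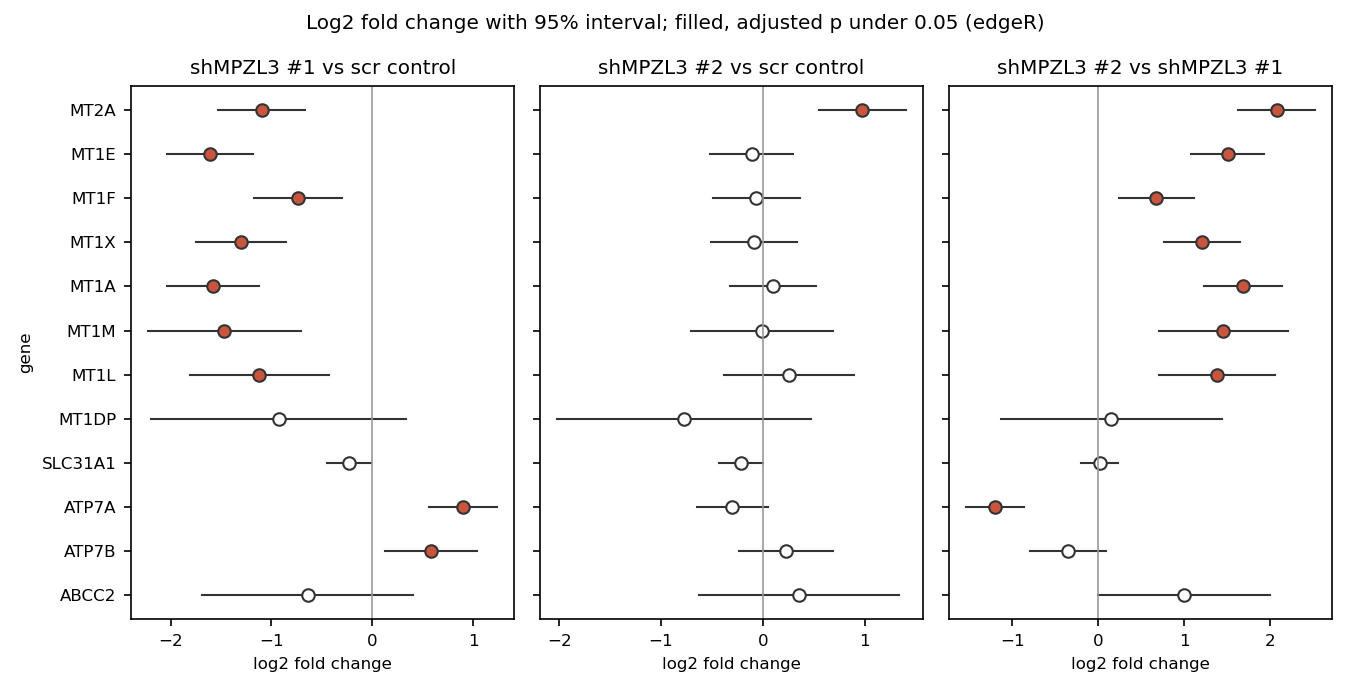
Log2 fold changes with 95% intervals of the 8 tested members and 4 further metallothionein genes, for each shRNA against scr control and for sh #2 against sh #1; filled points have an edgeR adjusted p-value under 0.05. The 4 metallothionein members were lower with sh #1, and with sh #2 MT2A alone among them passed the test, on the higher side.

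MT2A, the most abundant metallothionein here, moved in opposite directions with the shRNAs. Its normalized counts, scaled by edgeR's TMM to the mean library size, were 3401, 4586 and 5395 in scr control (4461 ± 1003, SD, n = 3), 3045, 1441 and 1774 with sh #1 (2087 ± 846), and 9055, 8654 and 8624 with sh #2 (8778 ± 241). The 3 groups did not overlap, although replicate 1 of sh #1 came close to the lowest control. MT2A fell by 1.10 on the log2 scale with sh #1 (SE 0.205, edgeR adjusted p = 0.0007), to 0.468 of control, and rose by 0.98 with sh #2 (SE 0.203, adjusted p = 0.00351), or 1.97-fold. The shRNAs differed by 2.07 (SE 0.21, adjusted p = 1.1e-05), a 4.20-fold ratio. The exact permutation p was 0.1 for each of these comparisons, the smallest that 3 against 3 libraries can give. Grouped, the log2 fold change of MT2A was 0.28 (SE 0.513, adjusted p = 0.746), and it was -0.06 when the mean of both shRNAs was taken within the 3-group fit.

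MT1E was lower with sh #1 and near the control with sh #2. It had 1557, 1448 and 1405 normalized counts in scr control (1470 ± 78.4), 668.2, 425.3 and 346.2 with sh #1 (480 ± 168), and 1454, 1664 and 977.1 with sh #2 (1365 ± 352). Every sh #1 library lay below every other library, while sh #2 straddled the controls, with its replicate 3 the lowest of the 6. The fall with sh #1 was the steepest among the members, to 0.327 of control (log2 fold change -1.61, SE 0.203, edgeR adjusted p = 2.98e-05). With sh #2 the log2 fold change was -0.11, with a 95% interval from -0.52 to 0.30 (adjusted p = 0.751). The shRNAs differed by 1.50 (SE 0.202, adjusted p = 0.000123).

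MT1X followed the same order at a lower level. Its normalized counts were 235.3, 316 and 266.7 in scr control (273 ± 40.6), 126.3, 103.3 and 103.1 with sh #1 (111 ± 13.3), and 222.7, 352 and 198.4 with sh #2 (258 ± 82.6). The sh #1 libraries formed a narrow group below all others, and the other groups overlapped. MT1X fell by 1.30 on the log2 scale with sh #1 (SE 0.211, edgeR adjusted p = 0.000225), to 0.406 of control. With sh #2 its log2 fold change was -0.09, with a 95% interval from -0.51 to 0.33 (adjusted p = 0.807), and the shRNAs differed by 1.21 (SE 0.209, adjusted p = 0.000995).

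MT1F showed the smallest fall of the 4. It had 855, 753.6 and 632.4 normalized counts in scr control (747 ± 111), 648.1, 325.9 and 370.7 with sh #1 (448 ± 175), and 855.4, 713.1 and 582.5 with sh #2 (717 ± 137). Replicate 1 of sh #1 lay inside the range of both other groups, so for MT1F alone among the metallothionein members the sh #1 libraries overlapped the controls. The log2 fold change was -0.74 with sh #1 (SE 0.208, edgeR adjusted p = 0.0124), -0.06 with sh #2 (adjusted p = 0.874) and 0.67 between the shRNAs (SE 0.207, adjusted p = 0.0359). The call with sh #1 was lost without replicate 1 of scr control (adjusted p = 0.0576), replicate 2 of sh #1 (0.0521) or its replicate 3 (0.0659). The call between the shRNAs was lost without replicate 2 (0.136) or 3 (0.143) of sh #1, or without replicate 1 (0.166) or 2 (0.0521) of sh #2.

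MT1G had 0 counts in all 9 libraries, which allows up to 3 counts in each, or 0.108 to 0.199 CPM (counting error only), and it could not be compared between groups.

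**Figure D3:**
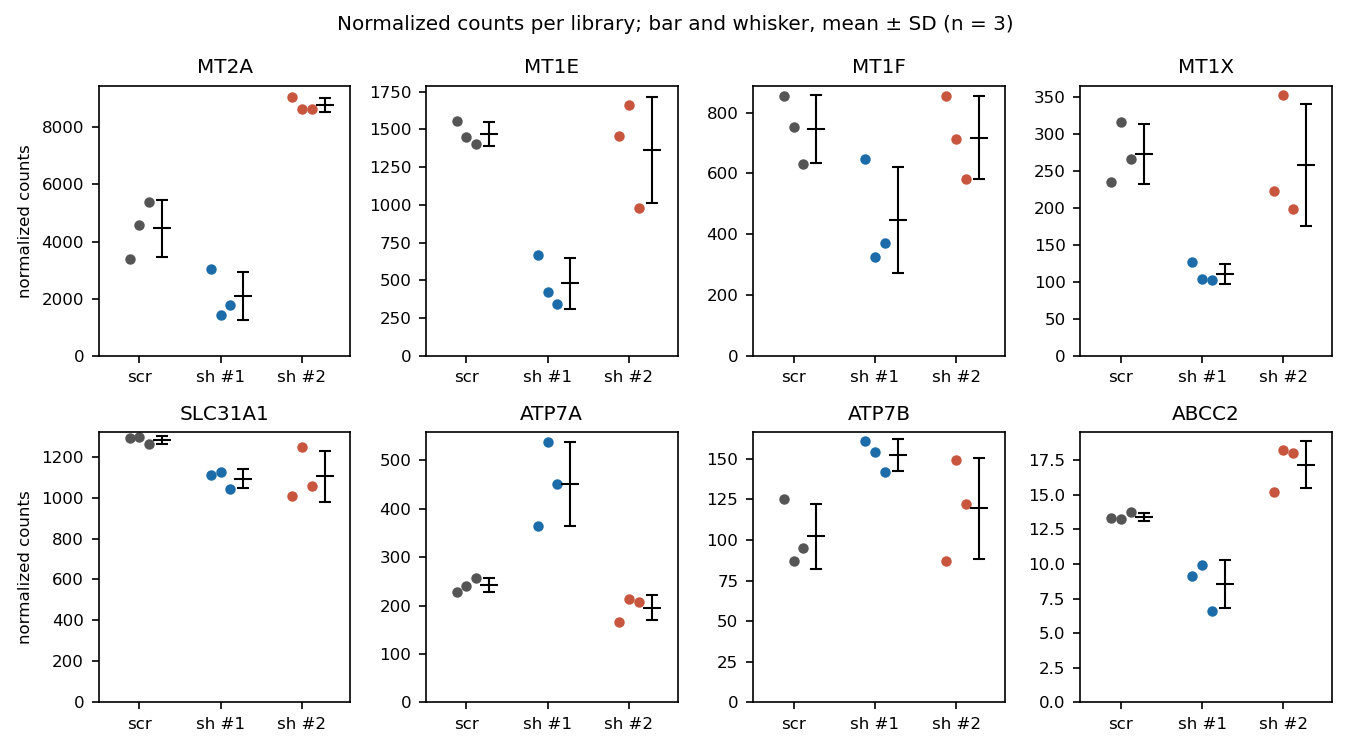
TMM-normalized counts of the 8 tested members in each of the 9 libraries (points), with the mean and SD of 3 libraries for scr control, sh #1 and sh #2; each axis starts at 0. MT2A ran from 1441 to 3045 with sh #1 and from 8624 to 9055 with sh #2, and ATP7A showed the opposite order.

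Summed over the 5 metallothionein members, the family's mRNA was lowest with sh #1 and highest with sh #2, where MT2A held a larger share of it. The sum was 6049, 7103 and 7699 normalized counts in scr control (6950 ± 836), 4487, 2295 and 2594 with sh #1 (3125 ± 1189), and 11590, 11380 and 10380 with sh #2 (11117 ± 647). The 3 groups did not overlap. MT2A made up 63.6% ± 6.97 of the sum in scr control, 66.3% ± 3.10 with sh #1 and 79.1% ± 3.61 with sh #2 (SD, n = 3 each). MT1E made up 21.5% ± 3.86, 15.6% ± 2.66 and 12.2% ± 2.62. The 5 members held 93.6% to 96.8% of the counts of all 21 metallothionein rows of the table in each library.

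**Figure D4:**
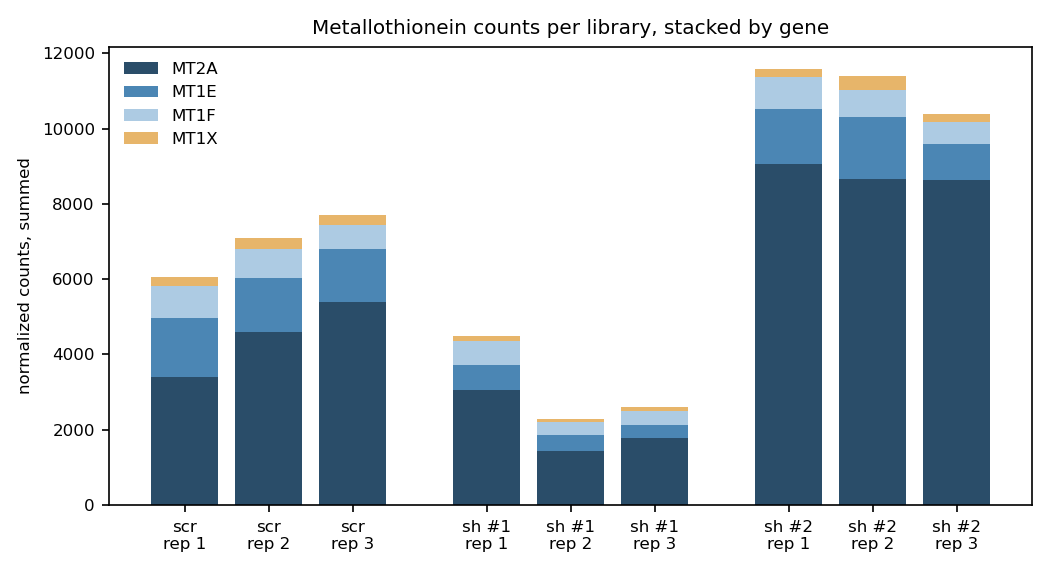
Normalized counts of MT2A, MT1E, MT1F and MT1X stacked for each library, with MT1G at 0 in all. The stacks reach 6049 to 7699 in scr control, 2295 to 4487 with sh #1 and 10380 to 11590 with sh #2.

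Of the other metallothionein genes, 3 of the 4 that could be tested were also lower with sh #1. The list held 11 further genes and pseudogenes of the family. MT1A, MT1M and the pseudogene MT1L were lower with sh #1 and higher with sh #2 than with sh #1, and 0 of the 4 were called with sh #2 against control. MT1A and MT1M share some 50-base windows with MT1F and MT1X, so the uncertainty of read assignment holds for them too. Of all genes, 15.3% were called lower with sh #1, 15.2% were called with sh #2, and 7.56% were called higher with sh #2 than with sh #1. The median log2 fold change of the 4 was -1.29, 0.05 and 1.42 in these comparisons. MT1A had 158, 165 and 122 counts in scr control, 78, 67 and 42 with sh #1, and 190, 178 and 264 with sh #2. It fell by 1.58 on the log2 scale with sh #1 (SE 0.218, edgeR adjusted p = 6.17e-05), against a log2 fold change of 0.10 with sh #2. MT1M had 72, 102 and 37 counts, then 42, 28 and 23, then 113, 83 and 61, and fell by 1.47 with sh #1 (SE 0.358, adjusted p = 0.00493). MT1DP, also a pseudogene, had at most 26 counts and was not called (log2 fold change -0.93 with sh #1, adjusted p = 0.259), and MT1B, with 6, 5 and 3 counts in scr control, 0 in each sh #1 library and 5, 10 and 2 with sh #2, was below the filter.

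SLC31A1 encodes CTR1, the main high-affinity copper importer. It had 1290, 1296 and 1259 normalized counts in scr control (1282 ± 19.6), 1112, 1124 and 1041 with sh #1 (1092 ± 44.7), and 1009, 1245 and 1058 with sh #2 (1104 ± 124). The controls were tight, and all 6 knockdown libraries were below them, replicate 2 of sh #2 by a small margin. The grouped log2 fold change was -0.22 (SE 0.0911, 95% interval -0.42 to -0.03), to 0.857 of control. It had an edgeR adjusted p of 0.11 and an exact permutation p of 0.0238, where the smallest possible for 6 against 3 is 0.0119. Without replicate 2 of sh #2 it was -0.27 (adjusted p = 0.0488). The values for each shRNA were alike, -0.23 with sh #1 (adjusted p = 0.0928) and -0.22 with sh #2 (adjusted p = 0.166, or 0.0416 without the same library), and their difference was 0.01 with a 95% interval from -0.20 to 0.23. CDC26 overlaps SLC31A1 on the other strand but shares 0 of its exonic bases.

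SLC31A2 encodes CTR2, a low-affinity relative. It had 0, 5 and 2 counts in scr control, 0, 4 and 2 with sh #1, and 1, 4 and 1 with sh #2, too few to test. Of its exonic bases, 63.1% also lie in exons of FKBP15 on the opposite strand, and the libraries kept no strand information. Reads from the shared bases therefore cannot be placed with certainty, and the counts and level per length of SLC31A2 carry that limit.

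ATP7A, a copper pump of the trans-Golgi network that moves to the plasma membrane when copper is high, rose with sh #1. Its normalized counts were 228.7, 239.6 and 257.1 in scr control (242 ± 14.3), 363.4, 538.5 and 451.1 with sh #1 (451 ± 87.6), and 167, 214 and 206.7 with sh #2 (196 ± 25.3). The 3 groups were fully apart, with sh #1 on top and sh #2 at the bottom. The rise with sh #1 was 1.86-fold (log2 fold change 0.90, SE 0.161, edgeR adjusted p = 0.000505). With sh #2 the log2 fold change was -0.30, with a 95% interval from -0.65 to 0.05 (adjusted p = 0.24). The shRNAs differed by -1.20 (SE 0.161, adjusted p = 0.000123). ATP7A overlaps PGK1, an abundant glycolytic gene on the same strand, in 97 of 10920 exonic bases. PGK1 had 189605 counts over all libraries against 2680 for ATP7A, and its log2 fold change was -0.10 with sh #1 and 0.07 with sh #2, neither called.

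ATP7B, the related pump mutated in Wilson disease, had 125, 86.78 and 94.86 normalized counts in scr control (102 ± 20.1), 161.1, 154 and 141.9 with sh #1 (152 ± 9.73), and 87.06, 149.1 and 121.8 with sh #2 (119 ± 31.1). The sh #1 libraries were above all controls, and those of sh #2 overlapped both other groups. The log2 fold change was 0.58 with sh #1 (SE 0.216, edgeR adjusted p = 0.0488), 0.23 with sh #2 (adjusted p = 0.522) and -0.35 between the shRNAs (adjusted p = 0.285). The rise with sh #1 was at the threshold. It was lost with DESeq2 (adjusted p = 0.0599) and without replicate 2 (0.188) or 3 (0.134) of scr control, replicate 1 (0.0896), 2 (0.0875) or 3 (0.0723) of sh #1, or replicate 3 of sh #2 (0.0506).

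ABCC2, the export pump for conjugates, was scarce, with 7 to 24 counts in a library. Its normalized counts were 13.3, 13.21 and 13.75 in scr control (13.4 ± 0.291), 9.154, 9.936 and 6.62 with sh #1 (8.57 ± 1.73), and 15.18, 18.26 and 18.04 with sh #2 (17.2 ± 1.71). The control values rest on 10, 14 and 10 counts, and their SD is smaller than the counting error of such counts. The 3 groups did not overlap, yet at this depth no difference passed the test. The log2 fold change was -0.64 with sh #1 (SE 0.496, edgeR adjusted p = 0.353), 0.36 with sh #2 (adjusted p = 0.658) and 0.99 between the shRNAs, with a 95% interval from -0.01 to 2.00 (adjusted p = 0.174).

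Per length (RPKM, computed from the counts and the deposited gene length), the members spanned a wide range of levels. In scr control the order was MT2A at 167 ± 37.6, MT1E at 68.0 ± 3.63, MT1F at 19.3 ± 2.87, SLC31A1 at 12.2 ± 0.186, MT1X at 7.49 ± 1.12, ATP7A at 1.08 ± 0.0639, ATP7B at 0.515 ± 0.101, ABCC2 at 0.0834 ± 0.00181 and SLC31A2 at 0.0484 ± 0.0461, with MT1G at 0. Neighbours in this order did not overlap except ABCC2 and SLC31A2, and SLC31A2 and MT1G. The SD of ABCC2 rests on 10, 14 and 10 counts and is smaller than their counting error. With sh #1, MT1E (22.2 ± 7.77) overlapped MT1F (11.6 ± 4.50), and MT1F overlapped SLC31A1 (10.4 ± 0.424). With sh #2, SLC31A1 (10.5 ± 1.18) overlapped MT1X (7.08 ± 2.27), and ATP7A (0.874 ± 0.113) overlapped ATP7B (0.601 ± 0.157), while MT2A reached 329 ± 9.02.

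Copper export mRNA was higher relative to import mRNA with sh #1, a comparison given without a test. The ratio of ATP7A to SLC31A1 normalized counts was 0.177 to 0.204 in scr control, 0.327 to 0.479 with sh #1 and 0.165 to 0.195 with sh #2. The sh #1 libraries stood apart, and the other groups overlapped. Across the 9 libraries, which fall in the 3 groups and share those group differences, Pearson's r of log2 CPM was 0.95 between MT1E and MT1X, 0.90 between MT1E and MT1F, 0.80 between MT1E and MT2A, -0.93 between MT2A and ATP7A and 0.05 between MT2A and SLC31A1. These are descriptions of 9 points and not tests.

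Among 13643 protein-coding genes, those whose log2 CPM followed MT2A most closely over the 9 libraries were F12, coagulation factor XII (r = 0.987), ITPR3, an intracellular calcium channel (0.981), and EPHB2, an ephrin receptor (0.980). F12 had 133.9 to 145.7 normalized counts in scr control, 85.45 to 109.8 with sh #1 and 172.4 to 186.3 with sh #2, the same order of groups as MT2A over a narrower range. For SLC31A1 they were TFAM, a mitochondrial transcription factor (0.978), LEO1 (0.975) and SMCHD1 (0.973). TFAM had 1841 to 1968 normalized counts in scr control, 1059 to 1374 with sh #1 and 1160 to 1675 with sh #2. For ABCC2 they were SERTAD2 (0.982), LCP1, an actin-bundling protein (0.980), and FUT8, a fucosyltransferase (0.969), with only 7 to 24 ABCC2 counts in a library. All these genes were picked for the highest r, over 9 libraries that share the group differences, and were not tested.

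Of 25 zinc transporters and MTF1, 20 passed the filter, of which 3 were called higher and 4 lower with sh #1, and 2 higher and 1 lower with sh #2, with a median log2 fold change of 0.02 and 0.07. Over all genes, 16.8% were called higher and 15.3% lower with sh #1, and 9.36% and 5.8% with sh #2, and the counts of this and the following lists are to be read against these shares and were not tested against them. SLC30A1, the zinc exporter that MTF1 induces together with the metallothioneins, fell with both, by 0.49 on the log2 scale with sh #1 (SE 0.0972, edgeR adjusted p = 0.00108) and by 0.33 with sh #2 (SE 0.0968, adjusted p = 0.0308). It had 1230 ± 43.6, 875 ± 44.0 and 981 ± 56.5 normalized counts in the 3 groups, the knockdown libraries all below the controls, as were 11% of all genes. SLC39A13 (ZIP13), a zinc transporter of intracellular vesicles, rose by 0.50 (adjusted p = 0.00487) and 0.41 (adjusted p = 0.0339). MTF1 itself had 685 ± 26.3, 700 ± 15.9 and 619 ± 15.0 normalized counts, with log2 fold changes of 0.03 and -0.15 that were not called.

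Of 27 chaperones and other copper genes, 24 were tested, with 8 called higher and 3 lower with sh #1, 4 and 2 with sh #2, and 4 and 2 when grouped. Among all genes 16.8% and 15.3%, 9.36% and 5.8%, and 9.36% and 6.4% were called higher and lower in these comparisons. Their median log2 fold change was 0.27, 0.13 and 0.23, against 0.01, 0.00343 and 0.02 over all genes. PRNP, the copper-binding prion protein, rose by 1.00 with sh #1 (SE 0.12, edgeR adjusted p = 2.1e-05) and by 0.51 with sh #2 (SE 0.12, adjusted p = 0.00786), and the difference of -0.48 also passed (adjusted p = 0.0107). ATOX1, the chaperone that hands copper to ATP7A and ATP7B, had 1431 ± 46.4 normalized counts in scr control, 1934 ± 355 with sh #1 and 1948 ± 192 with sh #2. It rose by 0.44 (adjusted p = 0.013) and 0.45 (adjusted p = 0.0221), and its 6 knockdown libraries lay above the controls, as did 11.8% of all genes. SLC25A3, the mitochondrial carrier of phosphate and copper, fell by 0.54 (adjusted p = 0.000638) and 0.32 (adjusted p = 0.0399). SCO2, a gene of this list, had 2 rows in the count table, and only the first was used.

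Of 19 other drug efflux and platinum uptake transporters, 16 were tested, with 4 called higher and 2 lower with sh #1, and 1 higher and 2 lower with sh #2 (median log2 fold change 0.01 and -0.01). Of all genes 32% were called with sh #1 and 15.2% with sh #2. ABCC4 (MRP4), an efflux pump, fell by 0.40 (SE 0.127, edgeR adjusted p = 0.025) and 0.46 (SE 0.127, adjusted p = 0.0217). LRRC8D, a subunit of the volume-regulated anion channel through which cisplatin can enter, fell by 0.43 (adjusted p = 0.00244) and 0.33 (adjusted p = 0.0247). Among 18 tested genes of 19 for glutathione synthesis and conjugation, 4 were called higher and 4 lower with sh #1, and 2 higher and 1 lower with sh #2 (median -0.08 and -0.03). GSR, glutathione reductase, fell by 0.35 (adjusted p = 0.0176) and 0.33 (adjusted p = 0.0412).

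Heat shock genes and glucocorticoid targets were listed because metallothioneins respond to heavy metals and glucocorticoids. Of 13 heat shock and heavy metal stress genes, 12 were tested, with 2 called higher and 3 lower with sh #1, and 1 in each direction with sh #2 (median log2 fold change -0.22 and -0.01). HSP90AA1, a cytosolic chaperone, fell by 0.66 (SE 0.112, edgeR adjusted p = 0.00033) and 0.54 (SE 0.112, adjusted p = 0.00356). Of 10 genes for the glucocorticoid receptor and its induced genes, 9 were tested, with 3 called higher and 1 lower with sh #1, and 2 higher and 0 lower with sh #2 (median 0.05 and 0.28). These counts stand beside the 32% and 15.2% of all genes called. CEBPD, a transcription factor, rose by 0.69 (adjusted p = 0.0101) and 1.27 (adjusted p = 0.000208), and DUSP1, a MAP kinase phosphatase, by 0.67 (adjusted p = 0.000155) and 0.79 (adjusted p = 7.2e-05).

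**Figure D5:**
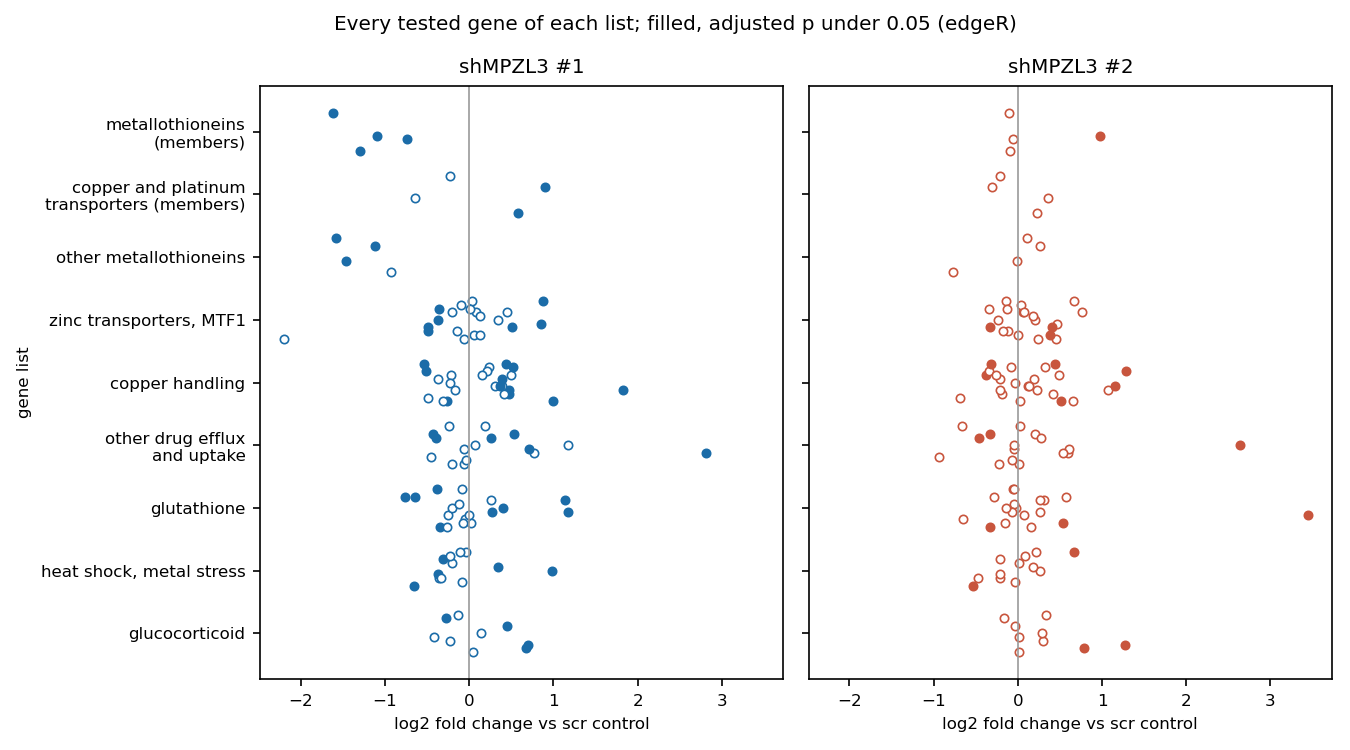
Log2 fold change against scr control of every tested gene in each list, for sh #1 (left) and sh #2 (right); filled points have an edgeR adjusted p-value under 0.05. The 8 tested metallothionein genes sit to the left of 0 with sh #1, and with sh #2 MT2A (0.98) and MT1DP (-0.78, not called) lie farthest from 0 among them.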

How the data were processed

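OVCAR4 mRNA was poly-A selected and made into non-directional libraries. Per the labels, reads were aligned to hg38 with HISAT2 2.0.5 and counted with featureCounts 1.5.0-p3, and the handling of multi-mapping reads is not given in the sources used here. The authors deposited raw counts per gene, without normalization or pooling, in 9 libraries grouped by title, and every sample column was mapped. All 58735 rows matched GENCODE release 29. The deposited gene length was used only for levels per length.

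Counts were analysed with edgeR 4.0.16 and limma 3.58.1 in R 4.3.3 (filterByExpr, TMM, two-sided quasi-likelihood tests, Benjamini-Hochberg adjustment over 16928 genes, calls at 0.05). The grouped comparison was fitted on 2 groups, and the others on 3 groups that share one spread. Standard errors were computed from the log2 fold change and its F statistic. Normalized counts are TMM-scaled to the mean library size, and log2 CPM used a prior count of 2. Chi-square per gene between replicates was 3.16 to 23.7, so no library was a copy of another. Sequences were read with Biopython 1.88 in Python 3.11.15.

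The tests were checked on simulated counts. Alternatives were DESeq2 1.42.0, upper-quartile and RLE scaling, no low-count filter, a floor of 10 counts per library, only protein-coding genes, a replicate block, the mean of both shRNAs in the 3-group fit, and leaving out each library. Total counts of 15040102 to 27835841 limit genes with few counts. Named genes are the members, MPZL3, genes of each list called for both shRNAs in one direction (at most 4 a list, otherwise the 2 largest called in any comparison), and the 3 genes closest to MT2A, SLC31A1 and ABCC2; MTF1, the overlapping PGK1 and CDC26, MT1L, MT1DP, MT1B, the cell type markers and the genes of the closing observations fall outside that rule. The members and lists were chosen with earlier results of these data known.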

Additional observations from a re-analysis of the deposited data

Results flagged for a closer look

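For 5 of the 8 tested members the effects of the shRNAs against the same controls differed by a test of the difference itself (edgeR's quasi-likelihood test with Benjamini-Hochberg adjustment over all genes). Of all genes, 15.1% were called in this comparison, 7.56% in each direction. The log2 difference, sh #2 minus sh #1, was 2.07 for MT2A, 1.50 for MT1E, 1.21 for MT1X, 0.67 for MT1F and -1.20 for ATP7A. All 3 libraries of each shRNA lay on their own side for MT2A, MT1E, MT1X and ATP7A, whereas those of MT1F overlapped, and 15.4% and 14.6% of all genes were wholly higher or lower in this comparison. The shRNAs also differed in sequence and in the depth of the MPZL3 knockdown (1.28 on the log2 scale). Sequence and depth cannot be told apart here, and their part in these differences was not tested.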

How the results depend on the processing

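Of 515 values of single members under the alternatives, 482 kept their direction and their side of the threshold, 14 lost a call, 6 gained a call and 13 changed sign. The calls of MT2A, MT1E, MT1X and ATP7A with sh #1, of MT2A with sh #2, and of MT2A, MT1E, MT1X and ATP7A between the shRNAs held in every alternative run. The grouped comparison depended on its construction. With the mean of both shRNAs in the 3-group fit it called 2479 genes higher and 2198 lower, and 2 members lower, MT1E (-0.86, adjusted p = 0.00117) and MT1X (-0.69, adjusted p = 0.00716), while MT2A changed sign to -0.059. With no low-count filter it called 1 member, MT1E (-0.67, adjusted p = 0.00437). DESeq2 called 1 member higher with sh #1, ATP7A. SLC31A1 between the shRNAs changed sign near 0, to -0.012 with upper-quartile normalization, -0.0038 with at least 10 counts and -0.0010 with protein-coding genes. The cause was not tested.

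Leaving out 1 library at a time, the grouped comparison called 453 to 1771 genes higher and 172 to 1466 lower, and 0 to 2 members lower, the latter without replicate 2 of sh #2, where MT1X reached -0.86 (adjusted p = 0.0343) and SLC31A1 -0.27 (adjusted p = 0.0488). With sh #1, 1689 to 2824 genes were lower, 1994 to 2992 higher, and 1 to 2 members higher. With sh #2, 910 to 1732 genes were higher, 354 to 1388 lower, and 0 to 1 members lower. Between the shRNAs 667 to 1521 genes were higher and 798 to 1432 lower. Each control library moved the grouped counts by over 1.5 times, to 453 and 172 without replicate 1, 686 and 276 without replicate 2, and 815 and 423 without replicate 3. The lowest counts for the other comparisons came without scr control replicate 1 (910) or sh #2 replicate 3 (354 and 667) or sh #1 replicate 3 (1689 and 798). Values near 0 took either sign, from -0.18 to 0.079 for ABCC2 grouped, from -0.28 to 0.098 for MT1E, from -0.22 to 0.085 for MT1F and from -0.38 to 0.083 for MT1X with sh #2, and from -0.076 to 0.060 for SLC31A1 between the shRNAs.

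Pairing was looked at in log2 CPM after subtraction of each group's mean. Same-numbered libraries of different groups then correlated at -0.00143 to 0.218, and differently numbered ones at -0.147 to 0.0671. Between sh #1 and sh #2 the same-numbered values were 0.0966 to 0.218, all above the differently numbered ones of that pair (-0.147 to 0.00376). Not all same-numbered values were over 0.1, so the replicate numbers were not taken to pair the samples. Whether same-numbered libraries shared a batch was not tested. A replicate block called 1597 genes lower with sh #2 and 2015 higher between the shRNAs, against 982 and 1279, and changed no call of a member. Differences of the size seen for ABCC2, with 7 to 24 counts in a library, did not pass the test at this depth.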

Other observations

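Several genes of the wider lists that fall outside the rule for named genes were picked after their values were seen. ABCG2, a drug efflux pump, had 5, 9 and 7 counts in scr control, 10, 28 and 21 with sh #1, and 40, 51 and 84 with sh #2. It rose by 2.64 on the log2 scale with sh #2 (SE 0.457, edgeR adjusted p = 0.000803), was not called with sh #1 (1.18, adjusted p = 0.0738), and the difference of 1.46 passed the test (adjusted p = 0.0214). SLC47A2, a multidrug and toxin extruder, moved the other way, with 5, 11 and 5 counts, then 28, 57 and 97, then 13, 11 and 15. It rose by 2.81 with sh #1 (SE 0.495, adjusted p = 0.000439) and differed by -2.28 between the shRNAs (adjusted p = 0.00302).

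SLC7A11, the cystine importer, had 182, 154 and 70 counts in scr control, 100, 104 and 95 with sh #1, and 201, 250 and 345 with sh #2, and the shRNAs differed by 1.33 (SE 0.247, edgeR adjusted p = 0.00167). Its libraries overlapped the controls with both shRNAs. It fell by 0.76 with sh #1 (adjusted p = 0.0292) and was not called with sh #2 (log2 fold change 0.57, adjusted p = 0.122). HMOX1, heme oxygenase, had a log2 fold change of -0.04 with sh #1 (not called), rose by 0.67 with sh #2 (adjusted p = 0.00676) and differed by 0.71 between them (adjusted p = 0.00461). GSTA1, a glutathione transferase, had 2, 1 and 1 counts in scr control, 0, 2 and 3 with sh #1, and 14, 17 and 32 with sh #2.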
